A study of Mus musculus with 6 samples.

Results

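Embryonic globin genes and genes of the erythroid (red cell) lineage were compared in posterior tissue dissected from E9.5 mouse embryos, as a measure of how much blood each sample carried. The set held 10 genes listed by symbol, the globins Hbb-bh1, Hbb-y, Hba-x and Hba-a1 and the erythroid genes Alas2, Klf1, Gata1, Slc4a1, Rhag and Epor. They are 10 of 18472 genes named on the array and were read by 11 of the 34967 gene probes of the array, found through the platform annotation, with 2 probes for Hbb-bh1 and 1 for each other gene. The samples were 3 from Fkbp8 mutants, called a, b and c, and 3 from wildtypes, called d, e and f.

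All embryos came from crosses between Fkbp8 heterozygotes, and the tissue taken began just behind the bud of the forelimb. The labels describe neither the mutant allele nor the strain. For mutant a the source label speaks of embryos in the plural, so it may have been a pool. Every sample had a 1-colour CodeLink Mouse Whole Genome array to itself. The labels do not say how the samples relate to litters or extractions, so the p-values cover only the spread among these 6 samples, which may in part be technical.

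At this stage of mouse development the blood consists almost entirely of primitive red cells, which arise in the yolk sac and enter the embryo when the heart starts to beat. These large, still nucleated cells make embryonic haemoglobins, in which the zeta chain from Hba-x and the adult-type alpha chains pair with the beta-like chains from Hbb-y and Hbb-bh1. GATA1 and KLF1 are the transcription factors that switch on globin, haem and membrane genes in red cells, and the receptor for erythropoietin carries the survival signal of the lineage. A dissected piece of embryo contains whatever blood its vessels held, so these transcripts are often read as blood content. In bulk tissue, fewer red cells and less RNA per red cell cannot be told apart.

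The promoters of 4 members are shown, 3 globins and the haem enzyme Alas2, because the set also includes GATA1 and KLF1, factors known to act on such genes. RefSeq's promoter table of GRCm38.p6 matched 8 of the 10 members (not Hbb-bh1 and Slc4a1) and gives 250 bases before the start and 50 from it. The windows lie at chr7:103853158-103853457 (minus strand) for Hbb-y, chr11:32276350-32276649 (plus) for Hba-x, chr11:32283422-32283721 (plus) for Hba-a1 and chrX:150547167-150547466 (plus) for Alas2. Capitals mark AGATAA or TGATAA, forms of the motif that GATA factors bind, and CCNCNCCC, a form of the CACCC-type motif that KLF factors bind, on either strand and with overlaps counted.
Hbb-y: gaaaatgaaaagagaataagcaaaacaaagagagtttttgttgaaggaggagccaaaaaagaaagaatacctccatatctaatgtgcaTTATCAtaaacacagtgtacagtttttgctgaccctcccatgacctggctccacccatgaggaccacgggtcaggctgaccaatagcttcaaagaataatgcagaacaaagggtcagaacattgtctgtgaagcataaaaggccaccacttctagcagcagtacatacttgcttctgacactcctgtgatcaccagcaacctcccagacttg
Hba-x: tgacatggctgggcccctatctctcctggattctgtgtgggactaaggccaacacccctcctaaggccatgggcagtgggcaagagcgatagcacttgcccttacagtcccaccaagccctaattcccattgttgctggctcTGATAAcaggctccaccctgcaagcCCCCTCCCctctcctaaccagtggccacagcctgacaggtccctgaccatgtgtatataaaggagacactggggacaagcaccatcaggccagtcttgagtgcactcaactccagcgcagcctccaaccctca
Hba-a1: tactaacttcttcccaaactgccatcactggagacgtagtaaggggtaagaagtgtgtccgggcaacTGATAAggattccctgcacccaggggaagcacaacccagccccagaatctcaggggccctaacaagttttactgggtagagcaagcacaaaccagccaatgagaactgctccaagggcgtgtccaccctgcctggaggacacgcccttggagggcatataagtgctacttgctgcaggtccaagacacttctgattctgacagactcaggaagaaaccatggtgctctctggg
Alas2: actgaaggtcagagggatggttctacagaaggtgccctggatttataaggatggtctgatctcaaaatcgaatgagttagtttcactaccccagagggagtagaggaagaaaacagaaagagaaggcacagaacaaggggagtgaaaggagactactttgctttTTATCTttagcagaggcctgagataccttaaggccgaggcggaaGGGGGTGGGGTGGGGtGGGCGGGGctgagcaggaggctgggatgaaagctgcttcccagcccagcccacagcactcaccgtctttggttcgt

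AGATAA or TGATAA was present in the windows of 7 of the 8 members, all but Gata1, against 18.6% of 32851 mouse promoter windows of the same length. Counted from the start of the gene, the match began at -162 in Hbb-y, -108 in Hba-x, -183 in Hba-a1 and -86 in Alas2. CCNCNCCC was present in 4 of the 8, Hba-x, Alas2, Gata1 and Epor, against 49.5% of all windows, which is no more than the background. A match describes the letters only, and binding was not measured.

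In the mutants, Fkbp8 log2 intensity was 6.28, 6.30 and 6.11 in a, b and c, not well above background, against 10.57, 10.74 and 10.68 in wildtypes d, e and f, as the labels require. Between 20144 and 21612 gene probes per array were above background. All 5 marker genes of posterior trunk looked at (Hoxa9, Hoxb9, Hoxc8, Hoxc9 and Cdx2) were above background on every array, while of 3 head markers Otx2 was so on none, Lhx2 on 4 and Six3 on all 6. The log2 intensity of Six3 lay between 10.67 (wildtype f) and 11.14 (mutant b), above that of Cdx2, Hoxb9 and Hoxa9 on every array. Levels were not all alike, with Hoxa9 at 9.10, 9.02 and 9.05 in mutants a, b and c, against 9.73, 9.41 and 9.54 in wildtypes d, e and f. Lhx2 read 6.70, 6.88 and 6.91, against 6.19, 6.54 and 6.21. For the other markers the groups overlapped. Mutants lay above wildtypes without overlap for 11.2% of all probes tested and below for 8.56%. The separation at Hoxa9 and Lhx2 therefore does not set these markers apart from other genes. Of the Y-linked genes, Uty, Ddx3y and Eif2s3y were detected in all mutants and in 0 of 3 wildtypes, while Xist was detected in 0 of 3 mutants and in all wildtypes. Kdm5d, also Y-linked, was above background on all 6 arrays and higher in mutants (log2 fold change 0.63, SE 0.08, adjusted p = 0.0403). Genotype and sex therefore cannot be told apart for any gene here, including Alas2 and Gata1, which lie on the X chromosome.

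Red cell transcripts were abundant in both groups, and no member differed between them past the test. Each of the 11 probes was above background on every array where its spot was usable, and all 11 were tested. With limma, 0 of 11 passed an adjusted p of 0.05 over all 21688 probes tested, where 0.12% of all probes passed (0.0646% higher and 0.0553% lower in mutants). At an unadjusted p under 0.05, 4 of 11 were higher in mutants (Alas2, Rhag, Epor and Slc4a1) and 0 lower, against 6.43% and 5.81% of all probes. Because saturation hides differences, signs and sizes were counted over the 8 probes saturated on no array. All 8 had log2 fold changes above 0, with a median of 0.28, while 52.4% of all probes were above 0 with a median of 0.01. The globin probes among them were near 0, Hbb-bh1 GE117921 at 0.07 and Hba-a1 at 0.04. The genes other than globins lay between 0.22 (Rhag) and 0.49 (Slc4a1). Mutants lay above wildtypes without overlap for 2 of these 8, Alas2 and Rhag, against 11.2% of all probes. That count was 5 of 8 without mutant c (18.4% of all probes), 5 without wildtype d (16.7%) and 3 without mutant b (16.9%). It stayed at 2 of 8 without mutant a (17.1%), wildtype e (16.5%) or wildtype f (15.2%). The median was 0.18 without wildtype f, with 7 of 8 above 0, and 0.43 without wildtype d, with 8 of 8 above 0. Without mutant a 6 of 8 were above 0.

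**Figure D1:**
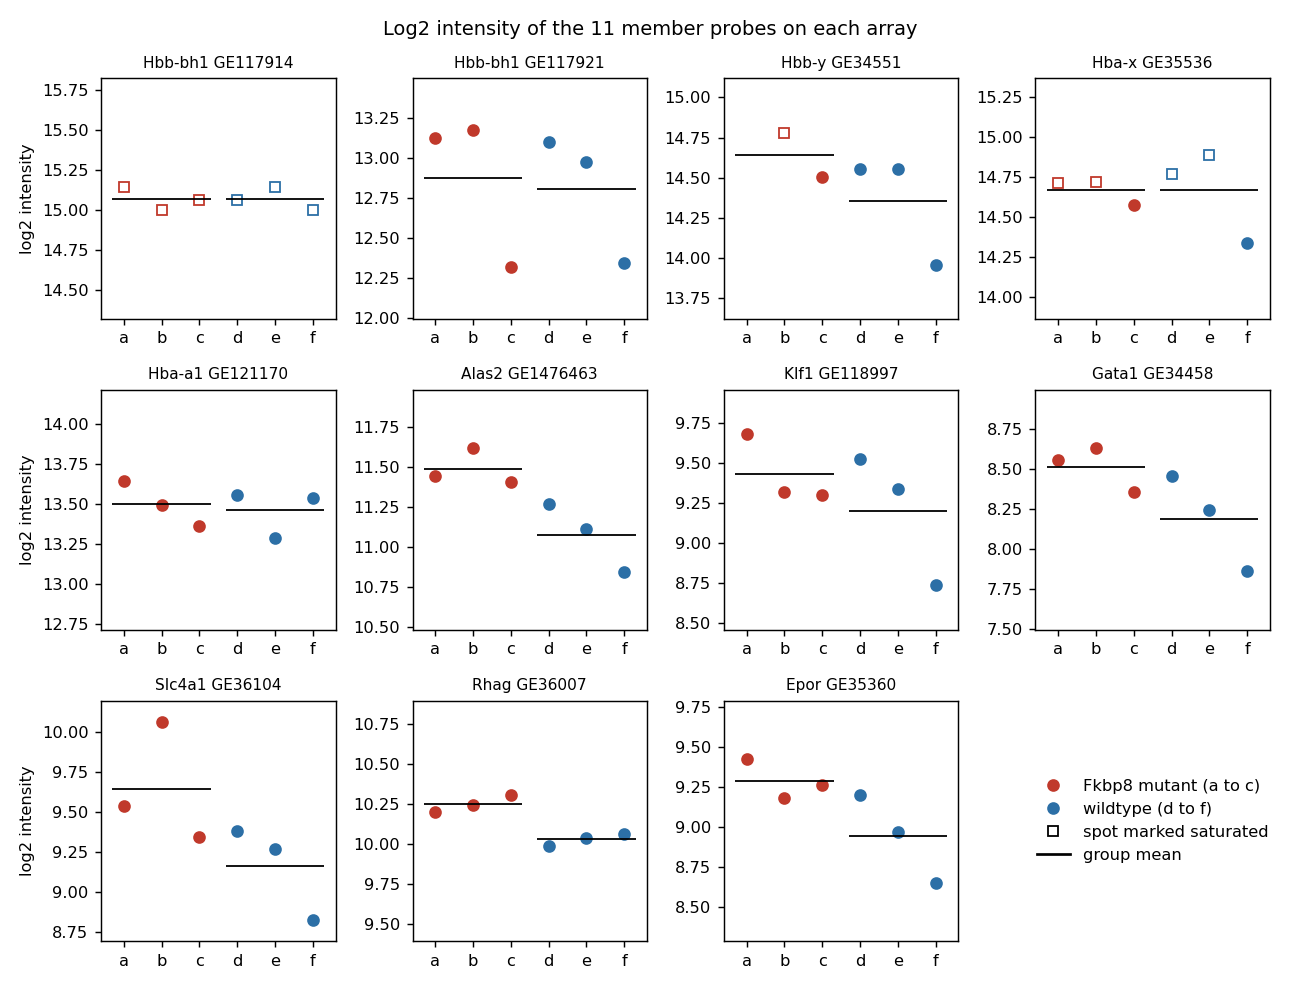
Log2 intensity after background correction and quantile normalization (vertical axis, panels of equal height) of each member probe on the 6 arrays (horizontal axis, mutants a to c in red and wildtypes d to f in blue). Lines are group means and open squares are spots marked saturated. Alas2 and Rhag are the only panels in which the 3 mutants lie above the 3 wildtypes, and wildtype f is the lowest point in the panels of Hbb-y, Hba-x, Alas2, Klf1, Gata1, Slc4a1 and Epor. The spot of Hbb-y on mutant a was irregular and is not drawn.

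The embryonic beta-like globin Hbb-bh1 was among the brightest probes of every array and could not be compared at its brighter probe. The background-subtracted intensity at GE117914 was 36957, 34495 and 33180 in mutants a, b and c, against 34206, 36912 and 33466 in wildtypes d, e and f. All 6 of these spots were marked saturated by the scanner software, so each is a lower bound and no fold is given. The probe ranked between 1 and 4 among all gene probes of an array, and after quantile normalization its value is set by that rank.

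A dimmer probe of the same Hbb-bh1 transcript, GE117921, was saturated on no array. Its log2 intensity was 13.13, 13.18 and 12.32 in mutants a, b and c, against 13.10, 12.98 and 12.34 in wildtypes d, e and f. The low arrays were mutant c and wildtype f, 1 in each group, and the other arrays lay close together. The difference on the log2 scale was 0.07 (SE 0.26, 95% interval -0.52 to 0.65, adjusted p = 0.939). Leaving out 1 array moved it to either side of 0, to -0.16 without wildtype f, -0.08 without mutant b and -0.06 without mutant a, and to 0.15 without wildtype e, 0.21 without wildtype d and 0.35 without mutant c. Both probes carry the same sequence accession, and their positions in the transcript are not given.

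Hbb-y, which encodes the epsilon-y chain of embryonic haemoglobin, was partly saturated. Its background-subtracted intensity was 31404, 29145 and 22087 in mutants a, b and c, against 24459, 24118 and 16530 in wildtypes d, e and f. Saturation was marked in mutants a and b and in 0 of 3 wildtypes, so these 2 mutant values are lower bounds. The spot of mutant a was also irregular and was set to missing, which left 2 mutant values. With these, the log2 intensity was 14.78 and 14.51 in mutants b and c, against 14.56, 14.56 and 13.96 in wildtypes d, e and f. On this scale mutant c lay within the range of the wildtypes. By deposited normalized intensity mutant c read 424, above wildtypes d, e and f at 381, 383 and 256. The fit gave a difference of 0.29 on the log2 scale (SE 0.19, adjusted p = 0.577). With 1 of its 2 mutant values a lower bound, this gives no exact size, and the p is not evidence that the groups were alike. Without mutant b, the saturated spot, the difference was 0.15, from 1 mutant value, and without wildtype f it was 0.09.

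Hba-x, which encodes the zeta chain, was saturated on 4 of 6 arrays. The background-subtracted intensity was 26468, 27609 and 22489 in mutants a, b and c, against 28236, 29244 and 21091 in wildtypes d, e and f. Before scaling between arrays, mutant c and wildtype f, the 2 unsaturated spots, were again the low ones. Mutant c was also the dimmest array over all gene probes, with a median background-subtracted intensity of 52.1, against 60.7 to 65.1 on the others. The deposited normalized intensity of Hba-x was 436, 424 and 431 in mutants a, b and c, against 440, 464 and 327 in wildtypes d, e and f. The log2 intensity averaged 14.67 ± 0.08 in mutants and 14.67 ± 0.29 in wildtypes (SD, n = 3 each), and both means include saturated spots. The fit gave 0.00 (SE 0.14, adjusted p = 0.998), but with 2 lower bounds in each group it shows neither a direction nor that the groups were alike.

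Hba-a1, an adult-type alpha globin already made in primitive red cells, was bright without saturation. Its log2 intensity was 13.65, 13.49 and 13.36 in mutants a, b and c, against 13.56, 13.29 and 13.54 in wildtypes d, e and f. The groups overlapped throughout, and here wildtype e was the lowest array. Mutants minus wildtypes came to 0.04 on the log2 scale (SE 0.11, 95% interval -0.20 to 0.28, adjusted p = 0.909), and it turned to -0.04 without mutant a or without wildtype e. Hba-a2 encodes the same chain from a nearly identical transcript, so the probe may report both genes.

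**Figure D2:**
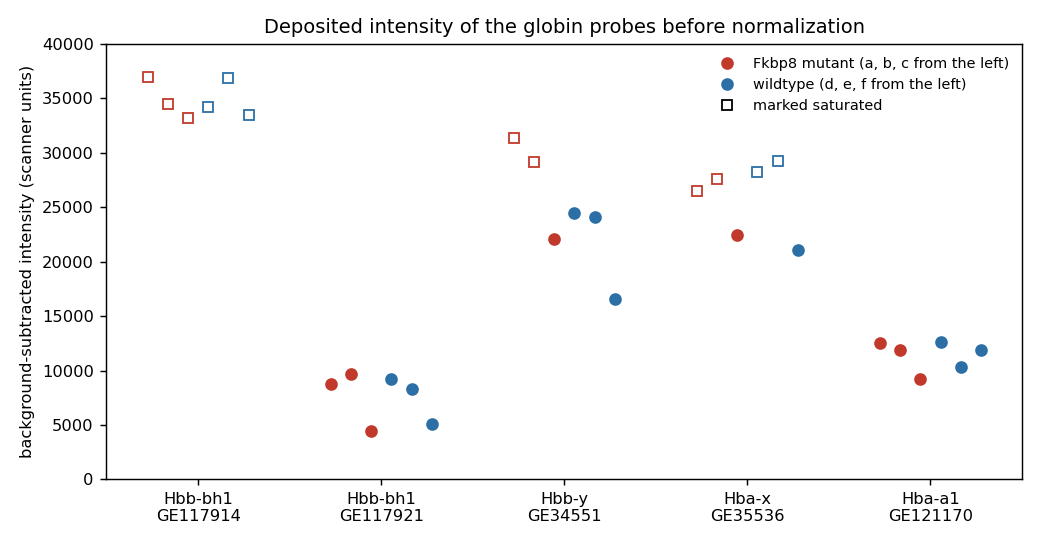
Deposited background-subtracted intensity in scanner units (vertical axis, linear from 0) of the 5 globin probes, with mutants a, b and c in red left of wildtypes d, e and f in blue, and open squares for spots marked saturated. Saturated spots lie at 26468 or more, and at Hbb-bh1 GE117921, Hbb-y and Hba-x both mutant c and wildtype f lie below the other arrays of their group. The values are not scaled between arrays, and mutant c was the dimmest array (median over all gene probes 52.1, against 60.7 to 65.1 on the others).

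Among the erythroid genes other than globins, Alas2 had the smallest p. It encodes the first enzyme of haem synthesis in red cells. Its log2 intensity was 11.44, 11.62 and 11.41 in mutants a, b and c, against 11.27, 11.11 and 10.85 in wildtypes d, e and f. Every mutant lay above every wildtype, and the gap between the nearest arrays, mutant c and wildtype d, was smaller than the range within the wildtypes. The mean was 1.33-fold higher in mutants (95% interval 1.11 to 1.60, log2 fold change 0.41, SE 0.12), which did not pass over all probes (adjusted p = 0.266). By exact permutation of the array labels, two-sided, p was 0.1, and 3 arrays against 3 cannot go lower.

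The transcription factors showed wide spread within the wildtypes. Gata1, the zinc finger factor that red cells cannot mature without, had a log2 intensity of 8.55, 8.63 and 8.35 in mutants a, b and c, against 8.46, 8.24 and 7.86 in wildtypes d, e and f. Wildtype d lay above mutant c, so the groups overlapped. Its fold change on the log2 scale was 0.33 (SE 0.15, adjusted p = 0.421). Klf1, a zinc finger activator of globin genes, read 9.68, 9.32 and 9.30 in mutants a, b and c, against 9.53, 9.34 and 8.74 in wildtypes d, e and f. Its wildtype range of 0.79 on the log2 scale was larger than the fold change of 0.23 (SE 0.19, adjusted p = 0.66). Without wildtype f, the log2 fold change of Gata1 was 0.16 and that of Klf1 was 0.00. Klf1 was at 0.11 without mutant a and at 0.40 without wildtype d.

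Of the 2 membrane genes, Slc4a1 had the largest fold change of the set and Rhag the smallest spread. Slc4a1 encodes band 3, the anion exchanger of the red cell membrane. It read 9.54, 10.07 and 9.34 in mutants a, b and c, against 9.38, 9.27 and 8.83 in wildtypes d, e and f (log2 intensity). Mutant b stood high and wildtype f low, and mutant c lay below wildtype d. The log2 fold change of 0.49 (SE 0.20, 95% interval 0.03 to 0.94) did not pass (adjusted p = 0.379), and it was 0.28 without mutant b and 0.32 without wildtype f.

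Rhag, the Rh-associated glycoprotein that forms the core of the Rh complex, was separated between the groups with little spread within them. Its log2 intensity was 10.20, 10.25 and 10.31 in mutants a, b and c, against 9.99, 10.04 and 10.07 in wildtypes d, e and f. The groups did not overlap, and wildtype f, the lowest array for 5 of the other unsaturated probes, was here the highest wildtype. The mean was 1.17-fold higher in mutants (95% interval 1.04 to 1.31, log2 fold change 0.22, SE 0.07, adjusted p = 0.305), with a range of 0.10 within mutants and 0.08 within wildtypes. The fold change lay between 0.19 and 0.28 over 18 settings, and did not pass in any of them (adjusted p from 0.243 to 0.565). The exact permutation p was 0.1.

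Epor, the erythropoietin receptor, read 9.42, 9.18 and 9.26 in mutants a, b and c, against 9.20, 8.96 and 8.65 in wildtypes d, e and f (log2 intensity). Wildtype d lay just above mutant b, the other wildtypes lay below all mutants. Epor was 0.35 higher in mutants on the log2 scale (SE 0.14, adjusted p = 0.365), and it was 0.20 without wildtype f.

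Across the members, the difference between groups was mostly no larger than the spread within the wildtypes. For 7 of the 8 probes that were saturated on no array, the range of the 3 wildtypes exceeded the mutant minus wildtype difference, Rhag being the exception, and for 4 of the 8 the range of the 3 mutants did so as well. The share of all probes for which this holds was not counted, so neither count sets the members apart from other genes. Wildtype f was the lowest array for 5 of these 8 probes, against 18.4% of all probes with 6 values, and a mutant was the highest array for all 8, against 57.5% of all probes.

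An erythroid index was formed as the mean log2 intensity of the 7 members above background on all arrays and saturated on none, with the brightest probe of each gene (Hba-a1, Alas2, Klf1, Gata1, Slc4a1, Rhag and Epor). It was 10.36, 10.37 and 10.19 in mutants a, b and c, against 10.20, 10.04 and 9.79 in wildtypes d, e and f. Mutant c and wildtype d were nearly equal, and wildtype f was the lowest array. The index averaged 10.30 ± 0.10 in mutants and 10.01 ± 0.21 in wildtypes (SD, n = 3 each), a difference of 0.29 that fell to 0.19 without wildtype f. No p is given for a score over chosen members. Between mutant a and wildtype d, whose sample names in the file headers begin with the same number of unstated meaning, the difference was 0.16.

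The 7 genes did not follow the index equally. Over the 6 arrays, the Pearson correlation of a gene with the mean of the other index genes was 0.98 for Gata1, 0.95 for Alas2, 0.89 for Epor, 0.81 for Slc4a1 and 0.76 for Klf1. It was 0.47 for Rhag and 0.16 for Hba-a1. These values describe 6 arrays that share the division into mutant and wildtype, and have no test. By the same measure, among 1858 other named genes with an SD of at least 0.2 over the arrays, the 8 most like the index were Mllt11, Vipr1, Plek2, Entpd7, Iqsec3, Chac2, Tro and Slc4a1ap, from 0.997 for Mllt11 to 0.98 for Slc4a1ap. Choosing them by likeness to the index fixed that they broadly share its pattern over the arrays, though not its exact order in every gene. With limma 0 of 8 passed between groups (adjusted p from 0.239 to 0.383).

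Other genes of the red cell program were taken from 6 lists of 80 genes in all, of which 67 were on the array and 59 were tested. In limma 0 of 59 passed over all probes (smallest adjusted p = 0.136), and at an unadjusted p under 0.05 there were 6 higher and 0 lower in mutants, where 6.43% and 5.81% of all probes were. In all, 43 of the 59 had log2 fold changes above 0, with a median of 0.08, against 52.4% and a median of 0.01 over all probes. Mutants lay above wildtypes without overlap for 7 of 59 and below for 2, against 11.2% and 8.56% of all probes. Without wildtype f, 37 of 59 were above 0 and the median was 0.06.

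The smallest p among them belonged to Hbq1b, a theta-type alpha-like globin. Its log2 intensity was 9.39, 9.41 and 9.17 in mutants a, b and c, against 8.83, 8.65 and 8.36 in wildtypes d, e and f. All mutants lay above all wildtypes, and wildtype f was again the lowest array. Hbq1b was 0.71 higher in mutants on the log2 scale (SE 0.13, 95% interval 0.42 to 0.999), and it did not pass (adjusted p = 0.136). Its near-identical copy Hbq1a was above background on 0 of 6 arrays at its own probe, and cross-hybridization between the copies was not tested.

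Genes of the red cell membrane and skeleton leaned most to the mutant side among the lists with more than 1 tested gene, with 11 of 13 tested genes above 0 and a median of 0.23. With limma 0 of 13 passed and 2 unadjusted p-values were under 0.05. Sptb, the beta chain of spectrin, was 0.46 higher in mutants (SE 0.16, adjusted p = 0.315). Rhd, a Rh blood group protein, was 0.44 higher (SE 0.17, adjusted p = 0.38) with 2 usable arrays per group. Dmtn, a protein of the membrane skeleton, was 0.23 higher (SE 0.10, adjusted p = 0.415).

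Genes of haem synthesis and iron handling were 11 of 15 above 0, with a median of 0.10. Slc25a37, the mitochondrial iron carrier mitoferrin, was 0.51 higher in mutants (SE 0.23, adjusted p = 0.415). Ftl1, the ferritin light chain, was 0.20 higher (SE 0.08, adjusted p = 0.38), and Fech, the last enzyme of haem synthesis, 0.22 higher (SE 0.10, adjusted p = 0.419). Fth1, the ferritin heavy chain, was 0.20 higher (SE 0.10, adjusted p = 0.438). Tfrc, the transferrin receptor through which red cell precursors take up iron, lay the other way at -0.46 (SE 0.25, adjusted p = 0.485). Tfrc read 10.14, 9.10 and 10.13 in mutants a, b and c, against 10.24, 10.33 and 10.19 in wildtypes d, e and f (log2 intensity), so that every mutant lay below every wildtype and mutant b stood far below the rest. In limma 0 of the 15 passed, and 1 had an unadjusted p under 0.05.

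Transcription factors of the lineage were divided, with 8 of 14 above 0 and a median of 0.02. Zfpm1, the GATA1 partner FOG1, was 0.30 higher in mutants (SE 0.10, adjusted p = 0.295) without overlap of the groups. Nfe2 was 0.30 higher (SE 0.14, adjusted p = 0.421), Gfi1b 0.33 higher (SE 0.16, adjusted p = 0.43) and for Klf3 the value was -0.42 (SE 0.22, adjusted p = 0.475). In limma 0 of the 14 passed, and 1 had an unadjusted p under 0.05.

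Of 8 red cell enzymes 6 were above 0, with a median of 0.05, and 0 passed with limma (of unadjusted p-values, 0 were under 0.05). The carbonic anhydrases lay on opposite sides of 0, Car1 at -0.22 (SE 0.10, adjusted p = 0.414) and Car2 at 0.34 (SE 0.17, adjusted p = 0.473). Car1 had no usable spot in mutant a, which left 2 mutant values. Of 8 genes of terminal maturation 6 were above 0, with a median of 0.07, and 0 passed with limma (of unadjusted p-values, 1 was under 0.05). Tspan33, a tetraspanin, was at 0.35 on the log2 scale (SE 0.16, adjusted p = 0.415).

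**Figure D3:**
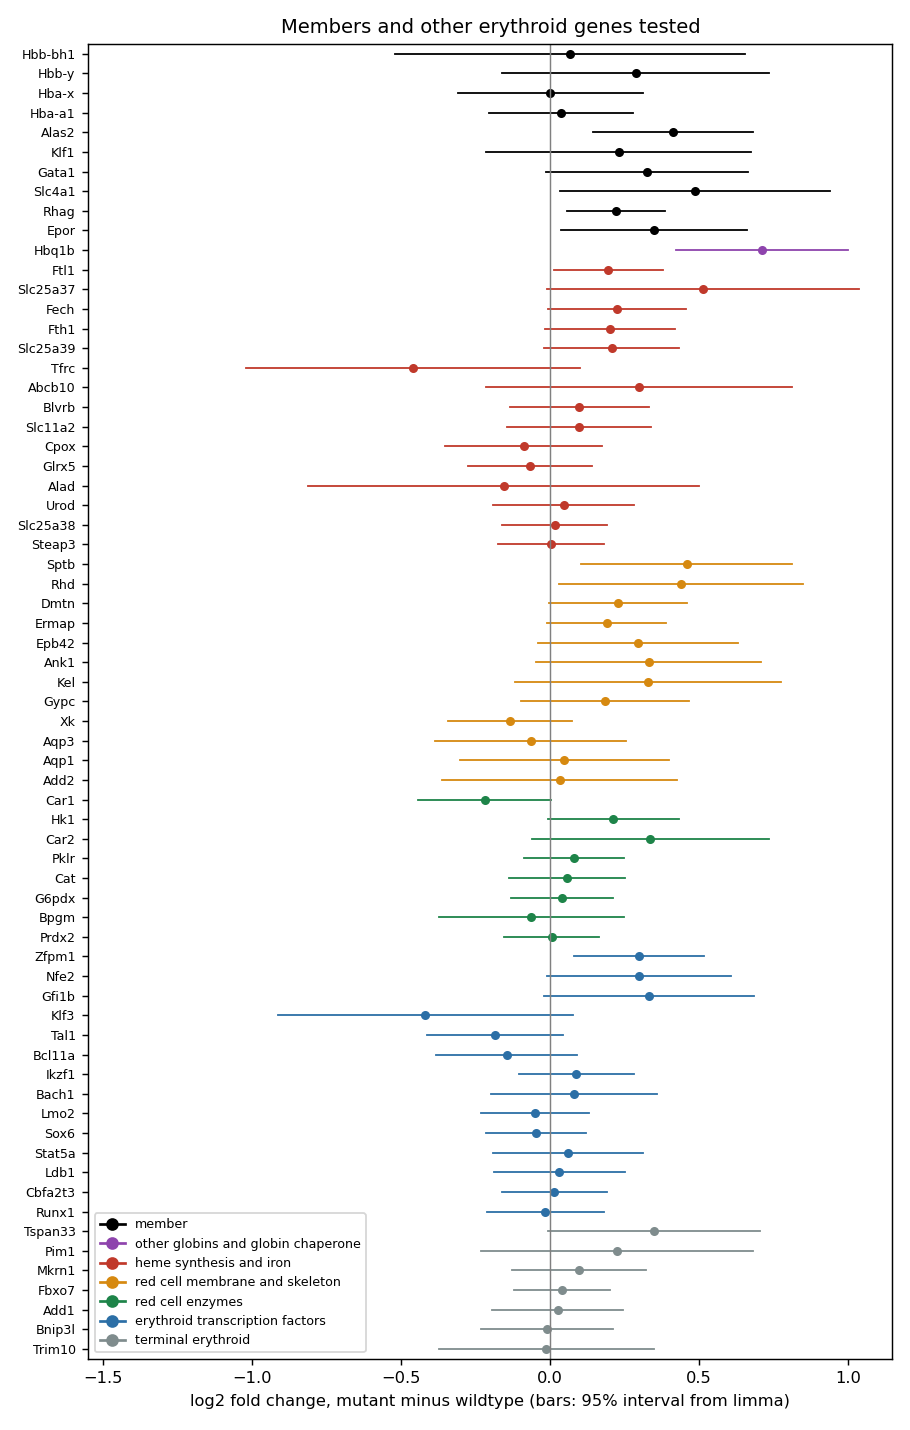
Log2 fold change, mutant minus wildtype (horizontal axis), of the member probes other than the fully saturated Hbb-bh1 probe and of other erythroid genes tested, 1 row each and coloured by list, with 95% intervals from limma. The members all lie at or above 0 (Hbb-y and Hba-x include saturated spots), and the intervals of most genes cross 0.

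Lists of other cells that the dissected tissue could hold were compared with the members array by array. Relative to the mean of the 6 arrays, the median deviation of 9 member genes (2 of them with saturated spots) was 0.16, 0.07 and -0.01 in mutants a, b and c, against 0.08, -0.10 and -0.44 in wildtypes d, e and f. Over all probes tested, the median deviation of an array lay between -0.004 and 0.015. The membrane list gave 0.14, 0.23 and -0.03 in the mutants, against 0.04, -0.06 and -0.31 in the wildtypes. Wildtype f was the lowest array in both.

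Megakaryocyte and platelet genes, made by another lineage of early embryonic blood, gave median deviations of 0.03, 0.18 and -0.03 in mutants a, b and c, against 0.02, -0.15 and -0.15 in wildtypes d, e and f. Of 9 tested genes 6 were above 0 and 0 passed with limma (of unadjusted p-values, 1 was under 0.05). Pf4, platelet factor 4, had the smallest p and was 0.56 higher in mutants (SE 0.22, adjusted p = 0.37), with 9.14, 9.67 and 9.13 in mutants a, b and c, against 9.23, 8.67 and 8.37 in wildtypes d, e and f.

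Endothelial genes, which mark vessel walls, deviated by 0.07, -0.01 and -0.01 in mutants a, b and c, against -0.01, 0.05 and -0.04 in wildtypes d, e and f. Of 17 tested genes 9 were above 0 and 8 below, with a median of 0.01, and 0 passed with limma. Mutants lay above wildtypes without overlap for 5 of the 17 and below for 2, against 11.2% and 8.56% of all probes. At an unadjusted p under 0.05 there were 2 higher and 2 lower, 4 of 17 against 12.2% of all probes. Plvap, a protein of vessel fenestrae, was at -0.27 (SE 0.07, adjusted p = 0.239), and Kdr, the VEGF receptor 2, was 0.25 higher (SE 0.09, adjusted p = 0.33). Wildtype f was the lowest array here too, at -0.04, as it was for 4 macrophage genes at -0.18, 3 cardiac genes at -0.07 and the megakaryocyte list at -0.15. For visceral endoderm and liver genes it stood at -0.11, above wildtype e at -0.25 and mutant a at -0.19, and for blood progenitor genes at 0.04. Nor was wildtype f the lowest array for erythroid transcription factors (-0.003, with mutant b at -0.013) or red cell enzymes (-0.036, with wildtype e at -0.047). The part of blood or vessel content in these values was not tested.

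Of 13 macrophage markers, 7 were above background on 0 of 6 arrays, among them Csf1r, Adgre1 and Ptprc. Spi1 and Cd68 were above it on all 6, and Fcer1g and Lyz2 on 3 each. Of 12 visceral endoderm and liver genes on the array, 6 were above background on 0 of 6 arrays, among them Alb, and Afp was above it on all 6. Its fold change of -0.08 (SE 0.16, adjusted p = 0.865) was small. Of 7 cardiac genes on the array, 4 were above background on no array, including Myh6, Myh7 and Tnnt2, while Myl7 and Actc1 were above it on all 6 and Tnni3 on 5. In limma 0 genes of these 3 lists passed, and 0 had an unadjusted p under 0.05.

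Among genes of blood progenitors, Kit had the smallest p with limma. This receptor for stem cell factor is also made outside blood, in neural crest derivatives and germ cells among others. Its log2 intensity was 8.93, 9.27 and 9.17 in mutants a, b and c, against 8.53, 8.58 and 8.58 in wildtypes d, e and f. The groups did not overlap and wildtype f was not low, both of which also held for Rhag. Kit was 0.56 higher in mutants (SE 0.10, 95% interval 0.34 to 0.78) and did not pass (adjusted p = 0.136). Over the list, 3 of 8 tested genes were above 0, and 0 passed with limma (of unadjusted p-values, 1 was under 0.05).

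**Figure D4:**
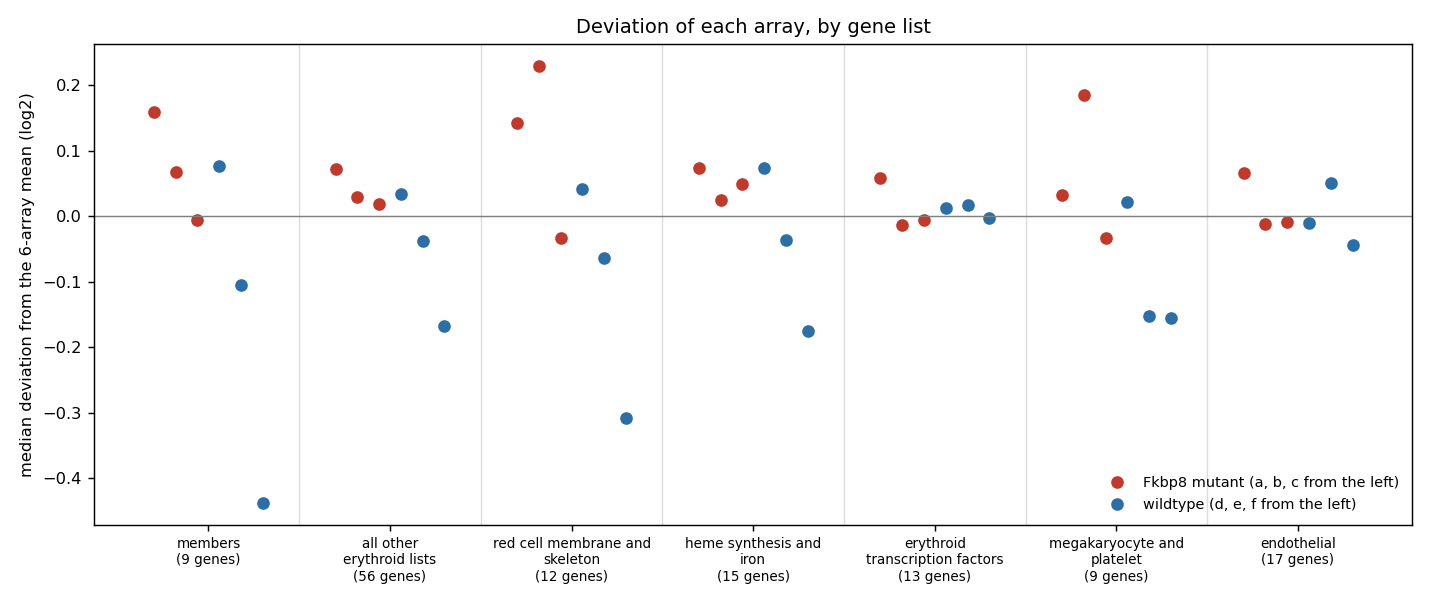
Median deviation of each array from the mean of the 6 arrays, on the log2 scale (vertical axis), for 7 gene lists (horizontal axis), with mutants a, b and c in red left of wildtypes d, e and f in blue. Wildtype f lies at -0.44 for the members and at -0.31 for the membrane and skeleton list, and at -0.04 for the endothelial list.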

How the data were processed

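Each of 6 CodeLink arrays held 1 sample on its own slide. Per the file headers, the authors' scanner files were made with CodeLink Expression Analysis 4.1.0.29054. They give intensity as spot mean and local background median, and as deposited normalized intensity (background-subtracted, divided by 1 factor per array), which the series table repeats exactly. The sources used here name no later step. Background was corrected with normexp (limma 3.58.1, R 4.3.3, offset 50) over all spots. Control spots were left out, contaminated, irregular or masked spots (339 to 508 gene probes per array) were set to missing, saturated spots (22 to 36) were kept, and log2 values were quantile-normalized. The offset makes fold changes of dim genes smaller. Probes above background (marked good or saturated) on at least 3 of 6 arrays, with 2 usable spots per group, were compared with limma (two-sided, Benjamini-Hochberg over 21688 probes), which was tested on simulated data. Of 34967 gene probes, 22165 had 1 symbol, 204 several and 12598 none (names from the platform annotation, updated with RefSeq GRCm38.p6). Members and lists were chosen with earlier results of these data known. Genes were named by rule: every member, of each other list up to 4 genes with the smallest p, the sex-linked genes, and the 8 genes most like the index. Some genes that the rule names are not reported here. Genes named only as at background, and the tissue markers, were chosen after their values were seen. Alternatives changed normalization, background, starting values, filter, variance model, flagged spots, index and samples. The number of arrays limits the precision of all values.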

Additional observations from a re-analysis of the deposited data

How the results depend on the processing

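The count of member probes past the threshold was 0 in all 18 settings (smallest adjusted p = 0.2, for Alas2 among probes above background on all 6 arrays). The difference of the erythroid index lay between 0.19 (without wildtype f) and 0.39 (without wildtype d) over 19 values, with 0.27 when the dimmer Hbb-bh1 probe was added, an alternative chosen after seeing the data. Over all probes, the number past the threshold was 26, but 16 with median centring, 13 with floored background-subtracted values, 15 with the deposited table, 16 with the filter on all 6 arrays, and 11 to 39 when 1 array was left out. Leaving out wildtypes d or f gave 11, mutant b 12, wildtype e 15 and mutant a 39. Fold changes near 0 turned sign in 11 cases. Hba-x was at -0.0033 with no background correction, -0.0266 with array weights and -0.011 with flagged spots kept, values that rest on saturated spots. With single arrays left out, Hba-x lay between -0.164 and 0.111, Hbb-bh1 GE117921 between -0.164 and 0.346, and Hba-a1 between -0.0448 and 0.109. The cause was not tested. The other 156 fold changes of single members kept direction and stayed short of the threshold. Counts over the 8 probes without saturation were an alternative added after seeing the data, and their median lay between 0.18 and 0.43. With 1 array per slide, the planned slide block was not run. No paired analysis was possible because mutants and wildtypes share no replicate letter. Saturation limits the brightest globin probes.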

Other observations

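In the array file, 3 further probes are described as similar to a haemoglobin alpha chain but have no gene symbol, so they were no members, and they were chosen after their values were seen. GE34550 was marked saturated on 6 of 6 arrays, and 2 of these spots (mutant c and wildtype d) were also marked contaminated. It gives no comparison between mutants and wildtypes. GE104105 was above background on all 6 arrays, with a log2 intensity of 7.14, 7.24 and 7.09 in mutants a, b and c, against 6.94, 7.09 and 6.96 in wildtypes d, e and f (log2 fold change 0.16, SE 0.08, adjusted p = 0.467). GE1526989, above background on 4 of 6 arrays, was 0.15 higher in mutants (SE 0.11, adjusted p = 0.586). Neither passed, and the groups overlapped for both.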
